A study of Malus domestica with 5 samples.

Results

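The miR171 microRNAs of apple (Malus domestica) were described in small RNA libraries of buds from either side of the change from juvenile to reproductive growth. They were taken as every name in the deposited count table that starts with mdm-miR171 and goes on with a letter, a hyphen or nothing. This gave 15 names, miR171a to miR171o, out of 207 named miRNAs and 430043 features. Names with the same count in every library cannot be told apart and were counted once, which left 8 distinct sets of counts. That was the highest number of distinct sets among the 44 named miRNA families, although miR156 has more names (31 names in 6 sets). The study held 2 libraries of juvenile-phase buds, whose tissue label describes sucker shoots of juvenile character at the base of the stem, and 3 libraries of reproductive-phase buds. Neither cultivar, treatment nor age is given in the labels used here, and only the juvenile libraries are said to come from suckers, so phase and position on the tree cannot be told apart. The labels do not say whether replicates are separate trees, and p-values therefore measure the spread between these libraries, which may be technical. In bulk tissue, fewer cells holding a miRNA and less of it per cell cannot be told apart.

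miR171 is one of the conserved miRNA families of land plants. It guides cleavage of messenger RNAs for GRAS transcription factors of the HAIRY MERISTEM type, called SCARECROW-LIKE or LOST MERISTEMS in Arabidopsis. In Arabidopsis and petunia these factors keep the cells of the shoot meristem undifferentiated, and in Arabidopsis they also act in shoot branching and in chlorophyll formation. Plants usually carry several miR171 genes, whose mature forms can differ by a few bases or by a shift along the precursor. The libraries hold no messenger RNA, so the GRAS targets themselves were not measured.

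The sets of counts were very unequal. miR171a and miR171b shared a set of 2012 and 1448 counts in juvenile replicates 1 and 2, and of 5564, 3599 and 3280 counts in reproductive replicates 1, 2 and 3. This set dominated the family in every library. miR171c, miR171d and miR171e shared 95 and 57 counts in juvenile buds, against 272, 245 and 218 in reproductive buds. miR171i, a name with a set of its own, had 32 and 14 counts in juvenile buds, against 224, 179 and 197 in reproductive buds. Before any scaling, then, miR171i was less frequent than the miR171c, miR171d and miR171e set in every library. In proportion it came much closer to that set in reproductive than in juvenile buds. miR171j, miR171k and miR171l shared 21 and 15 juvenile counts and 54, 47 and 42 reproductive counts. miR171f had 10 counts in each juvenile library, against 21, 23 and 24 in reproductive buds. Both of these sets were close to the minimum of 10 counts in juvenile buds, and so was miR171i in juvenile replicate 2 (14 counts). miR171m and miR171n shared 5 and 3 juvenile and 12, 14 and 3 reproductive counts, and miR171g and miR171h shared 3 and 1 juvenile and 8, 10 and 13 reproductive counts. miR171o stood at 0 in all 5 libraries, where a count of 0 allows up to 3 counts per library, or between 0.0487% and 0.194% of the counts of the family. The miR171g and miR171h set also equalled that of 1 numbered repeat, while none of the other sets with counts equalled a feature outside miR171.

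In the RefSeq gene table of apple (assembly GDT2T_hap1), 6 of the 15 names matched a miRNA gene. These were miR171c, miR171e, miR171f, miR171g, miR171h and miR171i, which lie on 6 different chromosomes. The miR171c and miR171e pair and the miR171g and miR171h pair therefore shared their counts although they are separate loci. The genes of miR171e, miR171f and miR171i overlap an annotated long non-coding RNA gene (strand was not compared), and the other 3 overlap no gene. None of the 6 has another miRNA gene within 10 kb.

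With each distinct set added once, the family summed to 2178 and 1548 counts in juvenile buds, against 6155, 4117 and 3777 in reproductive buds. It ranked 9 or 10 among the 44 families in every library. The share of miR171a and miR171b was 92.4% and 93.5% of the family in juvenile buds and 90.4%, 87.4% and 86.8% in reproductive buds, so no reproductive library reached a juvenile one. miR171i made up 1.47% and 0.904% of the family in juvenile buds, against 3.64%, 4.35% and 5.22% in reproductive buds. All 3 reproductive shares of miR171i lay above both juvenile shares, a rise of the mean from 1.19% ± 0.399 (SD, n = 2) to 4.40% ± 0.790 (SD, n = 3), or 3.71-fold. The miR171c, miR171d and miR171e set held 4.36% and 3.68% in juvenile and 4.42%, 5.95% and 5.77% in reproductive buds, with groups that did not overlap but nearly met. For miR171j, miR171k and miR171l the share was 0.967% ± 0.00340 (SD, n = 2) and 1.04% ± 0.145 (SD, n = 3). miR171f, the miR171m and miR171n set, and the miR171g and miR171h set each stayed under 1% of the family in every library, with overlapping groups.

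**Figure D1:**
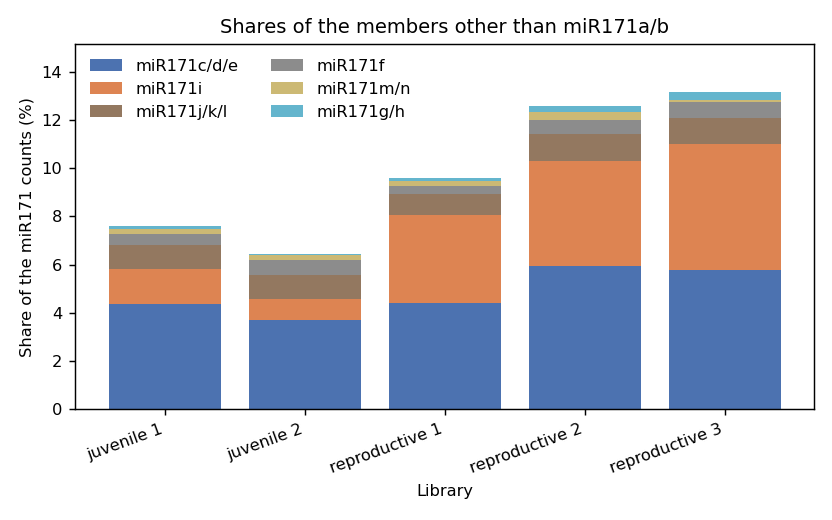
Share of the miR171 counts (%, vertical axis) held by each set of counts other than miR171a/b, stacked for each of the 5 libraries, with names that share their counts joined by a slash. The miR171i block widens from 1.47% and 0.904% in the juvenile libraries to between 3.64% and 5.22% in the reproductive ones, while the miR171c/d/e block changes less.

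A share within the family does not depend on how the libraries are scaled, and it was tested with edgeR's diffSpliceDGE on all 42 distinct members of the 15 named families with several members past the count minimum. Of the 7 miR171 sets tested, only miR171i was called, with a change in share of 1.81 on the log2 scale relative to the family as a whole (edgeR adjusted p = 1.7e-05). Over all 42 members, 21.4% were called in either direction and 11.9% upwards. By adjusted p, miR398a and miR482d alone stood ahead of miR171i. By the size of the fold in mean share, miR171i ranked 5 of the 42. For the other 6 miR171 sets the edgeR adjusted p was 0.39 or above. Among them is the miR171a and miR171b set, whose mean share was 93.0% in juvenile and 88.2% in reproductive buds, a difference in percentage points larger than that of miR171i (-4.74 against 3.21) but small relative to its level (-0.07 on the log2 scale). The values were 0.38 on the log2 scale for the miR171c, miR171d and miR171e set, 1.03 for the sparse miR171g and miR171h set, and between -0.15 and 0.08 for the others. The miR171g and miR171h set passed the count minimum through reproductive libraries alone, so its value carries no weight. The shares of the groups did not overlap for 3 of the 7 miR171 sets, beside 54.8% of the 42 members.

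The same contrast can be read as a quotient of counts inside a library, with miR171a and miR171b as the denominator. In juvenile replicates 1 and 2 there were 62.9 and 103 counts of the miR171a and miR171b set for each count of miR171i. In reproductive replicates 1, 2 and 3 there were 24.8, 20.1 and 16.6. The groups did not overlap. The quotient of miR171i over the miR171a and miR171b set was thus 3.98-fold higher in reproductive buds (exact permutation test, two-sided, p = 0.1 and Benjamini-Hochberg adjusted p = 0.60 over 6 quotients). The 10 ways to divide 5 libraries into 2 and 3 allow no p below 0.1. For the set of miR171c, miR171d and miR171e, the next most abundant, there were 21.2 and 25.4 counts of miR171a and miR171b per count in juvenile buds. In reproductive buds there were 20.5, 14.7 and 15.0. The difference was 1.40-fold (exact permutation test, two-sided, p = 0.2, adjusted p = 0.60), with juvenile replicate 1 and reproductive replicate 1 almost equal.

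The comparison of reproductive with juvenile buds then asked whether each set differed in level. Counts were scaled with TMM, which equalises the typical feature between libraries, and tested with edgeR's quasi-likelihood test over the 282619 features that reached 10 counts in 2 or more libraries. Fold changes are reproductive over juvenile with standard errors (SE), and normalised counts are TMM-scaled. All 7 sets with counts passed the count minimum, but the miR171m and miR171n set and the miR171g and miR171h set did so through reproductive libraries alone.

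miR171i was the member that rose. Its normalised counts were 54.4 and 31.7 in juvenile buds, against 135, 121 and 126 in reproductive buds. The reproductive libraries lay close together and well above both juvenile libraries, which themselves differed by more than the reproductive ones did. The mean went from 43.1 ± 16.0 (SD, n = 2) to 127 ± 6.79 (SD, n = 3), and the fold change fitted by edgeR was 2.86 (log2 fold change 1.52, SE 0.21, edgeR adjusted p = 2.2e-05). Among the features tested, 21.1% were called higher and 24.3% lower, and among the 64 distinct named miRNA sets tested 25% and 35.9%, and 1 of 7 miR171 sets called higher, with none lower, does not exceed these backgrounds. The log2 fold change of miR171i was higher than that of 94.0% of all features, and it ranked 6 of the 64 named sets.

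The dominant miR171a and miR171b set did not pass. Its normalised counts were 3421 and 3279 in juvenile buds, against 3345, 2440 and 2090 in reproductive buds. Reproductive replicate 1 lay between the juvenile libraries, and reproductive replicates 2 and 3 lay below them. The means were 3350 ± 99.8 (SD, n = 2) and 2625 ± 647 (SD, n = 3), at a log2 fold change of -0.35 (SE 0.14, adjusted p = 0.054 in edgeR). Without reproductive replicate 1 the set was called lower (log2 fold change -0.55, edgeR adjusted p = 7.6e-05), and with no count minimum it was called lower as well (-0.31, adjusted p = 0.024).

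For the miR171c, miR171d and miR171e set the normalised counts were 162 and 129 in juvenile and 164, 166 and 139 in reproductive buds. The groups overlapped, and the set stood at 0.09 on the log2 scale (SE 0.15, adjusted p = 0.66 in edgeR). The miR171j, miR171k and miR171l set had 35.7 and 34.0 normalised counts in juvenile and 32.5, 31.9 and 26.8 in reproductive buds (log2 fold change -0.20, SE 0.27, edgeR adjusted p = 0.56). miR171f had 17.0 and 22.6 in juvenile and 12.6, 15.6 and 15.3 in reproductive buds (log2 fold change -0.43, SE 0.36, edgeR adjusted p = 0.35). In both of these sets every reproductive library lay below every juvenile one, although neither difference passed the test. Groups that do not overlap were common in the table, at 69.1% of features, against 3 of the 7 miR171 sets. The sparse sets gave imprecise values, with log2 fold changes of -0.33 (SE 0.68) for miR171m and miR171n and 0.75 (SE 0.68) for miR171g and miR171h (edgeR adjusted p = 0.71 and 0.39). The last value ran from 0.36 without juvenile replicate 2 to 1.50 without juvenile replicate 1. Without reproductive replicate 2 or 3 the miR171g and miR171h set fell below the count minimum and could not be tested.

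**Figure D2:**
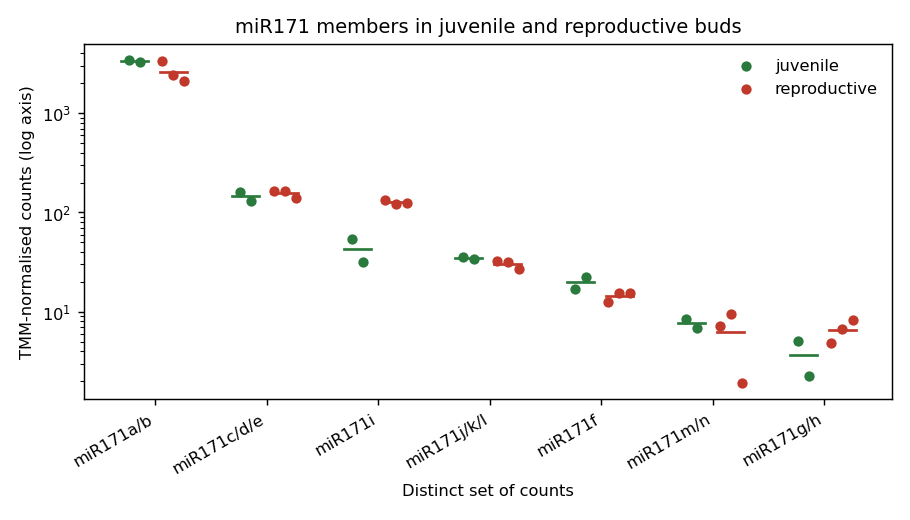
TMM-normalised counts (log axis) of the 7 miR171 sets with counts, one point per library and a line at each group's mean. The reproductive libraries lie apart from and above the juvenile ones for miR171i (121 to 135 against 31.7 and 54.4 normalised counts), while for miR171a/b reproductive replicate 1 (3345) lies among the juvenile libraries.

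The scaling of the libraries set the direction of most members. Mean library size was 3.05-fold higher in reproductive than in juvenile buds under TMM and 1.41-fold higher by the sums of counts. The median log2 fold change of all features was 0.08 under TMM, 0.06 with DESeq2, 0.53 with TMM over the named families and 1.19 on the sums alone. miR171i was higher and called under all 4 (log2 fold changes of 1.52, 1.51, 1.98 and 2.62). The miR171a and miR171b set went from -0.35 under TMM and -0.37 with DESeq2 to 0.11 (TMM over the families) and 0.76 (sums alone), and edgeR called it higher in the last case (adjusted p = 0.00015). The miR171c, miR171d and miR171e set was positive under all 4 (0.09, 0.07, 0.55 and 1.20) and called higher with TMM over the families and on the sums (edgeR adjusted p = 0.0094 and 1.7e-05). On the sums alone 5 of the 7 sets were called higher and none lower, where 83.3% of all features were called higher. Among the 5 is the miR171g and miR171h set (edgeR adjusted p = 0.015), which entered the test through the reproductive libraries, where it is high, so its call carries no weight. With TMM over the families 2 of the 7 were called higher, where 44.5% of all features were. DESeq2 called 1 of the 5 sets to which it gave an adjusted p higher, and 14% of the 260701 features to which it gave one. Read against the median of all features under the same scaling, 3 sets lay above it and 4 below it under each of the 4. A change of scaling moves all features by a like amount, so this is 1 result and not 4. The sets above the median were miR171i, the miR171g and miR171h set, and the miR171c, miR171d and miR171e set, the last by only 0.01 to 0.02. For the miR171g and miR171h set this place carries no weight either, because the count minimum favoured it.

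**Figure D3:**
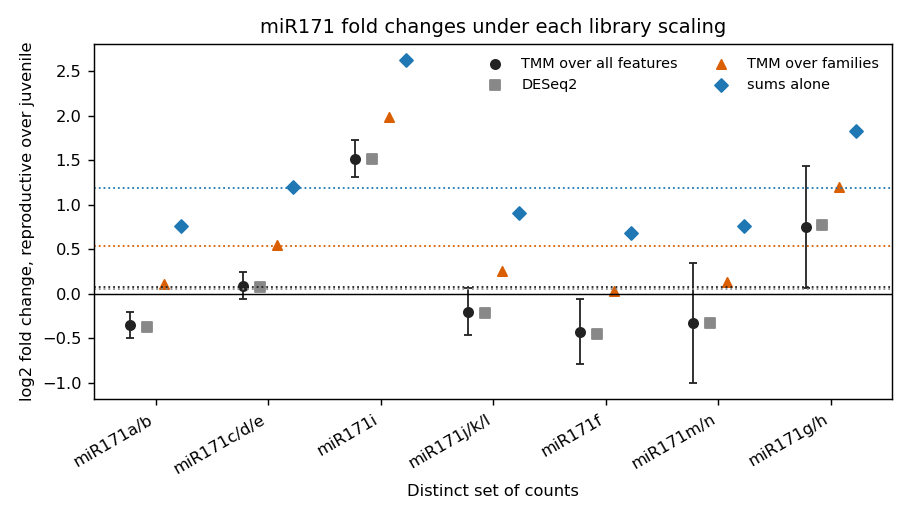
Log2 fold changes (reproductive over juvenile) of the 7 miR171 sets under 4 library scalings, with bars of 1 SE for TMM over all features and a dotted line at the median of all features under each scaling in its colour. miR171i is the highest set under every scaling, from 1.51 to 2.62, and the miR171a/b set goes from -0.37 to 0.76 but stays under the dotted line of its scaling.

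Summed over its sets, miR171 had 3604 ± 139 normalised counts in juvenile buds (SD, n = 2), against 2966 ± 664 in reproductive buds (SD, n = 3). It did not pass the edgeR family test (log2 fold change -0.28, SE 0.16, adjusted p = 0.11), in which 13.5% of 37 families were higher and 37.8% lower. The miR171a and miR171b set holds most of the counts in this total, and the rise of miR171i adds little to it. Without reproductive replicate 1 the total was called lower (-0.46, edgeR adjusted p = 0.033), and on the sums alone it was called higher (0.83, adjusted p = 0.0077), where 54.1% of the 37 families were called higher and 8.11% lower.

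Other families known to act in shoot meristems, organ boundaries and leaf development were set beside it. Of 9 such families in the table, 2 rose (miR164 and miR167), 4 fell (miR156, miR160, miR166 and miR394) and 3 did not pass (miR319, miR390 and miR396) under TMM, with a median log2 fold change of 0.00 beside -0.16 over all 37 families. DESeq2 gave the same calls. On the sums alone 5 rose (miR164, miR167, miR319, miR390 and miR396) and none fell, where 54.1% of the 37 families were called higher and 8.11% lower. With TMM over the families the listed families called under TMM kept their calls, and miR319 and miR396 were also called higher. Many families outside the list were called with this scaling too, in both directions, so such calls were not particular to the listed families. Because the calls depended on the scaling, the quotient of the miR171 total over each listed family was taken within a library. This choice was made after the data were seen. For every 1000 counts of miR166, which targets the HD-ZIP III transcription factors of leaf polarity, there were 8.91 and 6.82 counts of miR171 in juvenile and 16.3, 17.2 and 16.8 in reproductive buds. The reproductive libraries lie close together and above both juvenile ones, a 2.15-fold difference. Against miR164, which targets NAC genes of organ boundaries, the order was the opposite. There were 53.1 and 44.2 counts of miR171 per count of miR164 in juvenile buds and 29.3, 23.4 and 17.8 in reproductive buds, a 2.10-fold lower quotient. Against miR156, the repressor of SPL genes that holds plants in the juvenile phase, miR171 stood at 8.57 and 15.3 counts per count in juvenile and at 47.3, 16.9 and 16.8 in reproductive buds. Reproductive replicate 1 was far above the rest and the juvenile libraries differed widely. The log2 difference was 1.05, and it was 0.56 without reproductive replicate 1, 0.63 without juvenile replicate 1 and 1.47 without juvenile replicate 2.

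Across the 9 quotients, miR171 was higher in reproductive buds with no overlap against 4 families (miR166, miR156, miR160 and miR394), lower with no overlap against another 4 (miR396, miR319, miR167 and miR164), and overlapping against miR390. Groups that do not overlap were common in this table, at 69.1% of features in TMM-normalised counts. That is a share of single features, and no such share was taken over quotients of other families. Each quotient also carries the change of the other family. Against miR156 the groups nearly met, at 15.3 in juvenile replicate 2 and 16.8 in reproductive replicate 3. The log2 differences ran from -1.07 for miR164 to 1.11 for miR166, and none passed (exact permutation tests, two-sided, p from 0.1 to 0.4, or from 0.18 to 0.40 when Benjamini-Hochberg adjusted over 9 quotients). All 9 kept their sign when any 1 library was left out.

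**Figure D4:**
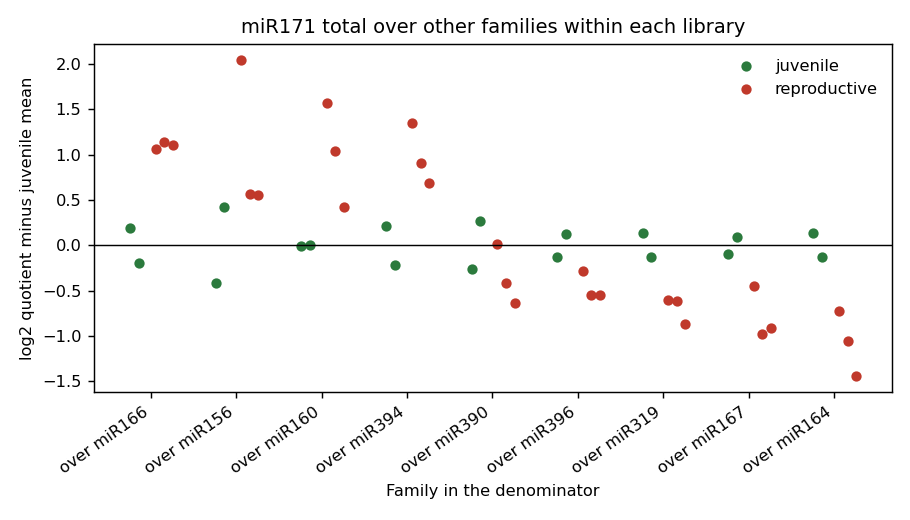
Log2 quotient of the miR171 total over each of 9 other families within a library, after subtracting the juvenile mean of that quotient, with one point per library. The reproductive libraries lie above the juvenile ones against miR166, miR156, miR160 and miR394, below them against miR396, miR319, miR167 and miR164, and overlap them against miR390.

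The families with the most similar pattern to the miR171 total over the 5 libraries were found from the root mean square difference of log2 normalised counts, each centred on its own mean, among the 34 other families with a count in every library. They were miR5225 (0.14), miR396 (0.26), which targets growth-regulating factors, and miR159 (0.28), which targets GAMYB-like genes, where the median family lay at 0.56. Among 54 named sets outside miR171, the nearest to the miR171a and miR171b set were the set shared by miR167h, miR167i and miR167j (0.15), miR5225c (0.16) and the set shared by miR396f and miR396g (0.18), beside a median of 0.59. The nearest to miR171i, which was looked up after its values were seen, were miR399d (0.32), miR482d (0.33) and the set shared by miR393a, miR393b and miR393c (0.35), beside a median of 0.98. These are likenesses over 5 libraries only.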

How the data were processed

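Small RNAs of 19 to 24 nt were cut from a gel, ligated to adapters and amplified, per the labels' protocols. The authors deposited raw whole-number counts per feature. The submitters' processing notes name Bowtie 1.1.2. The genome build, mismatches allowed and treatment of multiply matching reads are not stated in the sources used here. Members of a family often have identical counts, so a read can be counted under several names, the read depth is unknown and no counting intervals are given. Sums of counts ran from 85087230 to 97283456 (juvenile) and from 122455352 to 140173167 (reproductive). Column names were matched to sample titles.

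The fits used edgeR 4.0.16 and DESeq2 1.42.0 in R 4.3.3. Features that reached 10 counts in 2 or more libraries entered edgeR's quasi-likelihood test (glmQLFit, glmQLFTest) with TMM factors over all features and group as the only term. Families used the same factors. p-values were adjusted by Benjamini-Hochberg over all features, all 37 families or all 42 members, with a threshold of 0.05. The SE is the log2 fold change divided by the square root of F. diffSpliceDGE coefficients were converted from natural logs to log2. Normalised counts were scaled to a geometric mean library factor of 1. The scripts were tested on simulated data. The members, the list of families and the tests were chosen with earlier results of these data known. The text names every miR171 name, the listed families, the 3 families nearest to the miR171 total and the 3 sets nearest to miR171a and miR171b; miR398a, miR482d and the sets nearest to miR171i were named after their values were seen. Alternatives were DESeq2, the sums alone, TMM over families, other count minimums, every name added, a replicate block, and leaving out each library.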

Additional observations from a re-analysis of the deposited data

How the results depend on the processing

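miR171i kept its direction and its call in level under the other scalings, the other count minimums, the replicate block and with each library left out, with log2 fold changes from 1.22 (without juvenile replicate 2) to 2.62 (sums alone) and edgeR or DESeq2 adjusted p of at most 0.0014. Without juvenile replicate 1 it stood at 2.00. Its share kept its call with the block, with every name added and with each library left out. Relative to the family it ranged from 1.54 to 2.24 on the log2 scale when 1 library was left out (edgeR adjusted p from 3.1e-07 to 0.0064). The exact permutation test of the shares, which cannot give p under 0.1, called 0 sets against 1 in edgeR. The number of sets called higher was 5 on the sums alone and 2 with TMM over the families, against 1 under TMM. The number called lower was 1 with no count minimum and 0 or 1 when 1 library was left out, against 0 under TMM. Under TMM 24.3% of all features tested were called lower. The share in the other fits is not given here, so these counts are no result about miR171. The miR171 total had a log2 fold change of 0.83 on the sums and 0.18 after TMM over families, and ranged from -0.46 to -0.13 when 1 library was left out. The direction also turned on the sums and after TMM over families (in that order) for miR171a/b (0.76 and 0.11), miR171f (0.68 and 0.029), miR171j/k/l (0.91 and 0.26) and miR171m/n (0.76 and 0.13), none of them called under TMM. These scalings move all features by a like amount. When 1 library was left out, log2 fold changes ran from -0.049 to 0.27 for miR171c/d/e and from -0.46 to 0.11 for miR171m/n. Shares relative to the family ran from -0.40 to 0.14 for miR171f, from -0.14 to 0.25 for miR171m/n and from 0.69 to 1.74 for miR171g/h. The cause was not tested. The miR171m/n ranges leave out the fits without reproductive replicate 1 or 2, where the set fell below the count minimum. For miR171g/h the same holds without reproductive replicate 2 or 3. The quotient of miR171c/d/e over miR171a/b ranged from 0.36 to 0.64 on the log2 scale.

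With the replicate block (the replicate number in the titles) the miR171 total had a log2 fold change of -0.16 (edgeR adjusted p = 0.44), miR171i one of 1.55 (adjusted p = 5.7e-08), and miR171m/n turned to 0.084 in level and 0.25 in share. The block changed no call of a miR171 set and moved the features called from 128149 to 102140. The labels name no shared source for a number. Deviations from the group means correlated at -0.24 for number 1 and -0.099 for number 2. The deviations of the 2 juvenile libraries mirror each other, so these values cannot tell whether libraries with the same number share a source. DESeq2 gave no adjusted p for miR171m/n and miR171g/h, and with at least 50 counts only 3 sets could be tested.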
